A study of Mus musculus with 6 samples.

Results

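The enzymes described here make serine and glycine and move the single carbon units that folate carries. The group holds 10 genes, chosen by gene name from the 54532 genes of the count table: Phgdh, Psat1, Psph, Shmt1, Shmt2, Mthfd1, Mthfd2, Mthfd1l, Gcat and Gldc. They were measured by RNA sequencing in 6 cultures of splenic CD4+ T cells, purified by magnetic negative selection and grown under Th1 conditions for 72 h. In 3 cultures the cells received 500 nM ALX-5407, and in the other 3 they received vehicle (0.1% DMSO). ALX-5407 inhibits GlyT1 (Slc6a9), a plasma membrane carrier of glycine. The paper reports a first decline in viability at this dose and more apoptosis in treated Th1 cells. The part of cell death in the results was not tested. All cultures came from male C57BL/6 mice of 6 to 8 weeks and shared the Th1 medium, with plate-bound anti-CD3ε, anti-CD28, IL-2, IL-12p70 and anti-IL-4. The sample labels give 72 h under Th1 conditions with ALX-5407, whereas the methods give 24 h for the exposure before sequencing. The titles call the 3 samples of each group biological replicates without naming the animals, so the p-values cover the spread between these cultures.

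Serine is made from a glycolytic intermediate by Phgdh, Psat1 and Psph in turn. Shmt1 in the cytosol and Shmt2 in mitochondria convert serine to glycine and pass a carbon unit to tetrahydrofolate, and Mthfd1, Mthfd2 and Mthfd1l carry this unit on toward formate, purines and thymidylate. Gcat releases glycine from a threonine breakdown product, and Gldc is the decarboxylase of the mitochondrial glycine cleavage system. Activated T cells are known to raise this pathway when they begin to divide.

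The libraries held from 30801753 to 36727788 counts, and within a group any pair of libraries differed beyond sampling noise (chi-square per degree of freedom from 5.65 to 22.4). The T cell list of 7 markers summed to between 2565 and 2807 CPM (read counts scaled to library size) with vehicle and between 2151 and 2290 CPM with ALX-5407, with 1 of 7 higher and 4 lower (edgeR, adjusted p under 0.05). The 5 Th1 markers summed to 621 to 689 CPM with vehicle and 621 to 643 CPM with ALX-5407, with 1 higher and 2 lower. Markers of other cells were scarce. The 2 CD8 T cell markers summed to 9.25 to 9.59 CPM with vehicle and 6.71 to 8.87 CPM with ALX-5407. Of these, 0 were higher and 1 was lower. The 5 B cell markers summed to 7.60 to 8.84 CPM with vehicle and 11.4 to 14.4 CPM with ALX-5407, with 3 of 5 higher and 0 lower by the same rule. Of all genes tested, 24.5% were higher and 23.2% lower by this rule. The 6 myeloid markers stayed at or under 0.780 CPM in sum in every library, and the 4 NK cell markers at or under 0.542 CPM. The part of these cells in the results was not tested. In bulk RNA, fewer cells of a type and less RNA per cell cannot be told apart.

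The promoters of 4 members are shown first, as the 2 with the smallest p-values (Phgdh and Shmt2), the member that fell (Gldc) and the member with the smallest change (Mthfd1l). Each line holds the 250 bases before the start site in RefSeq (GRCm38.p6), read 5′ to 3′ on the strand of the gene. They lie at chr3:98339970-98340219 (− strand) for Phgdh, chr10:127522445-127522694 (− strand) for Shmt2, chr10:3972825-3973074 (+ strand) for Mthfd1l and chr19:30175442-30175691 (− strand) for Gldc. Capitals mark the letters CCAAT or GGGCGG on either strand.
Phgdh: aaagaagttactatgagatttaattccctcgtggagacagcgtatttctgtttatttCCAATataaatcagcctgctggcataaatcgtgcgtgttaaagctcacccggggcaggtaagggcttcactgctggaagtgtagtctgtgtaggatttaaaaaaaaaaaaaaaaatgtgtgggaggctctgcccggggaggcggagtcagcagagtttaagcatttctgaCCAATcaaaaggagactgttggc
Shmt2: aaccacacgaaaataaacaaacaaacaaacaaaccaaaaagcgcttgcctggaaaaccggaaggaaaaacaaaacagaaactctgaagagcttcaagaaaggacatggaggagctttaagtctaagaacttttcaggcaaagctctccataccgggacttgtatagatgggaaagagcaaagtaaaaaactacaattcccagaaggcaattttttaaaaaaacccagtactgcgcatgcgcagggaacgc
Mthfd1l: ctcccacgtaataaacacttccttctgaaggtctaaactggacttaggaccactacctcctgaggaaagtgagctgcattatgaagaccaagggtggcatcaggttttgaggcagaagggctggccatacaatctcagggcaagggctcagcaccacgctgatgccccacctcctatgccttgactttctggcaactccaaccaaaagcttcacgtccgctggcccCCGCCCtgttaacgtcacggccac
Gldc: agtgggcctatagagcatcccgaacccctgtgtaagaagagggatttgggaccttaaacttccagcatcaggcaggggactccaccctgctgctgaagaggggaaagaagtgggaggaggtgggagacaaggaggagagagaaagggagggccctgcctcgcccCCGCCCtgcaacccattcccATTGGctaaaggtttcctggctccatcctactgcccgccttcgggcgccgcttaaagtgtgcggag
Windows from 250 bases before to 50 after the start site were found for 10 of 10 members, 11 windows in all because Psat1 has 2. The letters TGATGNAA, the core of the composite element that ATF4 binds with C/EBP factors, were in 0 of the 11 windows on either strand, against 3.97% of the 32851 windows of all genes. The E-box CACGTG was in 1 window, that of Gcat, from position 3 after the start, against 7.15% of all windows. CCAAT was in 7 windows and GGGCGG in 7, against 37.4% and 35.7% of all windows. Phgdh held CCAAT at positions -193 and -23, while the window of Shmt2 held none of the 4 motifs. Matches of different motifs did not overlap in these windows. A match is a description of the letters, and elements outside the windows were not searched.

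In ALX-5407-treated Th1 cells, 7 of the 10 members rose, 1 fell and 2 did not pass the test (edgeR's quasi-likelihood test, Benjamini-Hochberg adjusted p under 0.05 over 15938 genes). Of all genes tested, 24.5% were higher and 23.2% were lower by the same rule. The libraries of both groups did not overlap for 8 members, 7 of them higher and 1 lower with ALX-5407, while this was true of 28.4% (higher) and 27.1% (lower) of all genes. The median log2 fold change of the 10 members was 0.53, and that of all genes tested was 0.0053. Summed over the members, the level was 1225 ± 6.43 CPM (SD, n = 3) with vehicle and 1786 ± 14.0 CPM (SD, n = 3) with ALX-5407. With both a limit on the adjusted p (under 0.05) and on the absolute log2 fold change (over 1), 0 members were higher and 1, Gldc, was lower. By these thresholds 3.36% of all genes were higher and 6.68% lower. The 7 rises were estimated at 0.25 to 0.93 on the log2 scale, all under 1.

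**Figure D1:**
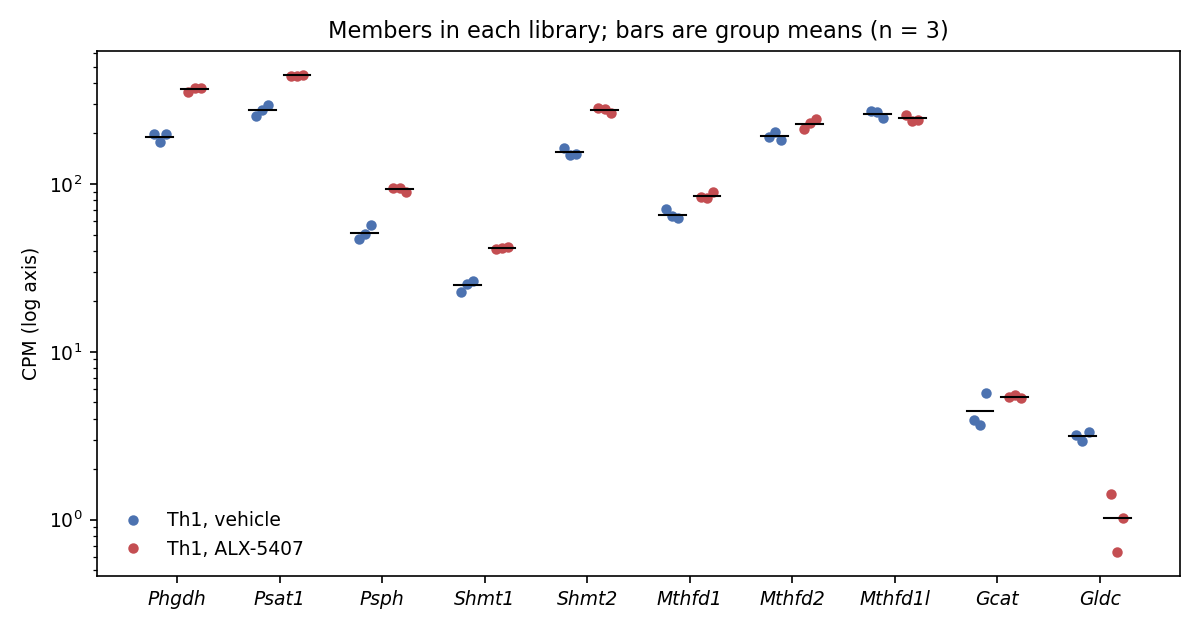
Level of each member in CPM on a log axis, with 1 point per library and bars at the group means (n = 3). Groups are separate for 8 members, higher with ALX-5407 for 7 and lower for Gldc, while Mthfd1l and Gcat overlap. Of all genes tested, 28.4% were separate and higher and 27.1% separate and lower.

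**Figure D2:**
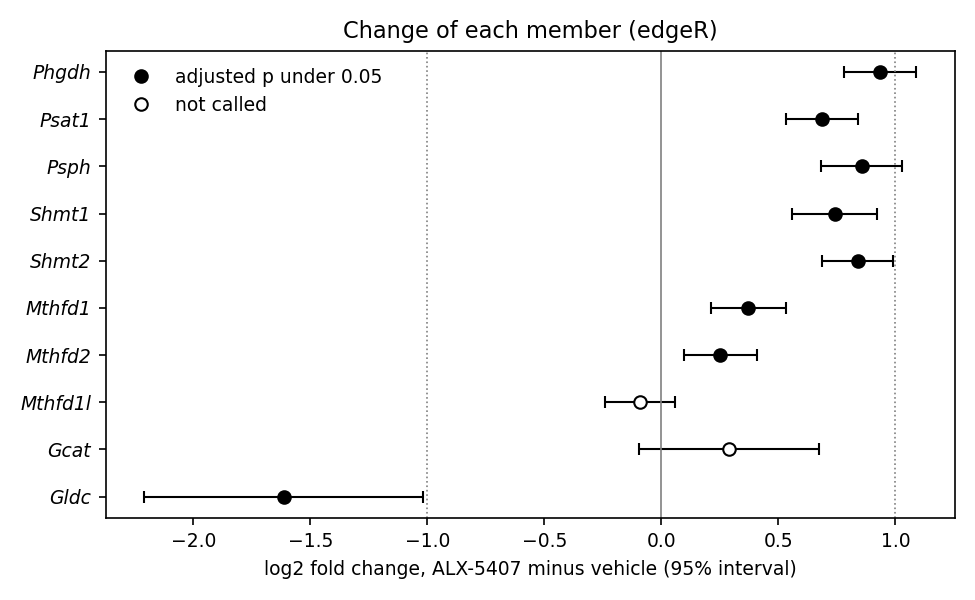
Log2 fold change of each member, ALX-5407 minus vehicle, with its 95% interval from edgeR. Filled points had an adjusted p-value under 0.05. Dotted lines stand at -1 and 1, and Gldc alone lies beyond them.

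The 3 genes of serine synthesis rose together. Phgdh (ENSMUSG00000053398, chromosome 3, 98313170 to 98339990, − strand) encodes the dehydrogenase that opens the pathway. Its level was 199.7, 177 and 197 CPM with vehicle and 352, 374 and 372 CPM with ALX-5407. The lowest treated library thus lay well above the highest untreated one. edgeR gave a log2 fold change of 0.93 ± 0.073 (SE), a 1.91-fold rise, with an adjusted p of 5.08e-08 and a 95% interval from 0.78 to 1.09. Reads of Phgdh can be shared with 10 pseudogene copies at 95% identity or more. These held 62 to 167 counts per library, against a mean of 9591 counts on Phgdh. With their reads added, the log2 fold change was 0.93, a value that such small counts could hardly move. The handling of reads with several matches is not given in the sources used here, so reads left out of all copies cannot be counted.

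Psat1 (ENSMUSG00000024640, chromosome 19, 15904678 to 15947337, − strand), the aminotransferase of the following step, was at 255, 275 and 296 CPM with vehicle and at 440.01, 441 and 448 CPM with ALX-5407. Treated libraries differed by little, with a coefficient of variation of 1.06% against 7.57% with vehicle. The rise was 0.69 ± 0.073 (SE) on the log2 scale (edgeR, adjusted p = 1.32e-06).

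Psph (ENSMUSG00000029446, chromosome 5, 129765558 to 129787449, − strand) encodes the phosphatase that releases serine. Its 3 untreated libraries held 46.8, 50.04 and 57.3 CPM, and its treated libraries 94.6, 94.2 and 90.01 CPM. No library of one group reached the range of the other. Its rise on the log2 scale was 0.86 ± 0.082 (SE; edgeR, adjusted p = 4.01e-07). Exons of Cct6a on the opposite strand cover 10.4% of the exon bases of Psph, and the use of strand in counting is not given in the sources used here. For Cct6a itself the change was 0.11 (edgeR, adjusted p = 0.214). Summed over the 3 genes, the level was 518 ± 28.2 CPM (SD, n = 3) with vehicle and 902 ± 13.3 CPM (SD, n = 3) with ALX-5407.

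Both serine hydroxymethyltransferases rose as well. Shmt1 (ENSMUSG00000020534, chromosome 11, 60788104 to 60811718, − strand), the cytosolic enzyme, was at 22.8, 25.5 and 26.4 CPM with vehicle and at 40.9, 41.5 and 42.4 CPM with ALX-5407. Its groups were separate, and it rose by 0.74 ± 0.086 (SE) on the log2 scale (edgeR, adjusted p = 3.14e-06). Exons of Smcr8 on the opposite strand share 4.74% of its exon bases, and Smcr8 rose by 0.67 (edgeR, adjusted p = 2.78e-06).

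Shmt2 (ENSMUSG00000025403, chromosome 10, 127517123 to 127522444, − strand), the mitochondrial enzyme, held 164, 149 and 151 CPM with vehicle and 283, 281 and 266 CPM with ALX-5407. The groups did not overlap. Shmt2 rose 1.79-fold, or by 0.84 ± 0.071 (SE) on the log2 scale (edgeR, adjusted p = 1.20e-07). A difference in response between Shmt1 and Shmt2 was not detected. The log2 ratio of Shmt2 to Shmt1, per gene length, was 2.94 ± 0.19 (SD, n = 3) with vehicle and 3.04 ± 0.074 (SD, n = 3) with ALX-5407, a difference of 0.10 (two-sided exact permutation test, p = 0.4). Without vehicle library 3 this difference was 0.040, and without vehicle library 1 it was 0.21.

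The 3 folate enzymes changed less. Mthfd1 (ENSMUSG00000021048, chromosome 12, 76255298 to 76319803, + strand), the trifunctional cytosolic enzyme, was at 70.6, 64.2 and 62.5 CPM with vehicle and at 83.5, 82.2 and 89.6 CPM with ALX-5407. The lowest treated library, at 82.2 CPM, lay above the highest untreated one, at 70.6 CPM. The rise of Mthfd1 was 0.37 ± 0.076 (SE) on the log2 scale (edgeR, adjusted p = 0.000715).

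Mthfd2 (ENSMUSG00000005667, chromosome 6, 83305691 to 83325908, − strand), a mitochondrial dehydrogenase and cyclohydrolase, held 189.5, 203 and 184 CPM with vehicle and 213, 229.8 and 244 CPM with ALX-5407. The lowest treated library lay just above the highest untreated one. Mthfd2 rose by 0.25 ± 0.074 (SE) on the log2 scale (edgeR, adjusted p = 0.0102), the smallest rise among the members that passed.

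Mthfd1l (ENSMUSG00000040675, chromosome 10, 3973118 to 4167081, + strand) encodes the mitochondrial synthetase that releases formate. It was at 271, 267 and 247 CPM with vehicle and at 258, 238 and 241 CPM with ALX-5407. The groups overlapped. For Mthfd1l the estimate was -0.092 with a 95% interval from -0.24 to 0.058 (edgeR, adjusted p = 0.306). Without vehicle library 3 it was -0.15 (edgeR, adjusted p = 0.0702), and with library size alone -0.033 (edgeR, adjusted p = 0.726). The interval of Mthfd1 ran from 0.21 to 0.53, above that of Mthfd1l.

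Both genes of glycine release and breakdown had low counts. Gcat (ENSMUSG00000006378, chromosome 15, 79030874 to 79038353, + strand) had 128, 115 and 174 counts with vehicle and 189, 205 and 187 counts with ALX-5407. In CPM, the vehicle libraries were at 3.93, 3.67 and 5.65 and the treated libraries at 5.35, 5.50 and 5.33. Vehicle library 3 lay above all treated ones. The estimate for Gcat on the log2 scale was 0.29 with a 95% interval from -0.097 to 0.67 (edgeR, adjusted p = 0.209). Without that library it was 0.49 (edgeR, adjusted p = 0.0314), so that 1 library decided the call, and without vehicle library 2 it was 0.16. A second gene named Gcat (ENSMUSG00000116378), which spans chromosome 15 from 79030901 to 79042531, shares 1132 exon bases with Gcat on the same strand, 47.5% of the exon bases of Gcat. It had at most 6 counts in any library and was not tested. How reads in shared exons were assigned is not given in the sources used here, so the level of Gcat is uncertain.

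Gldc (ENSMUSG00000024827, chromosome 19, 30098449 to 30175418, − strand) was the member that fell. It had 104, 92 and 102 counts with vehicle and 50, 24 and 36 counts with ALX-5407. In CPM these were 3.19, 2.93 and 3.31 against 1.42, 0.643 and 1.03. All treated libraries were below all untreated ones, though they varied among themselves (coefficient of variation 37.6% against 6.17%). Its log2 change was -1.61 ± 0.28 (SE; edgeR, adjusted p = 0.00018), a 3.06-fold lower level. With 1 library left out or another fit, this value ranged from -1.91 to -1.36.

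By compartment, 5 of 5 cytosolic enzymes (Phgdh, Psat1, Psph, Shmt1 and Mthfd1) were higher with ALX-5407, with a median log2 fold change of 0.74. Of the 5 mitochondrial enzymes, 2 (Shmt2 and Mthfd2) were higher and 1 (Gldc) was lower, with a median of 0.25. Of all genes tested, 24.5% were higher and 23.2% were lower (edgeR, adjusted p under 0.05). The difference between the compartments was not tested.

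Levels between genes were compared as CPM per kilobase of the gene length in the count table. With vehicle, Phgdh stood highest at 77.0 ± 4.92 (SD, n = 3), followed by Psat1 (64.7 ± 4.90), Mthfd1l (59.0 ± 2.87), Mthfd2 (55.1 ± 2.75) and Shmt2 (49.8 ± 2.68). From Psat1 to Shmt2 each gene overlapped its neighbour in this order across libraries. These 5 genes stood at or above the 93.7th percentile of all genes tested. Mthfd1 (14.8 ± 0.955), Psph (11.9 ± 1.24) and Shmt1 (6.41 ± 0.493) followed without overlap, and Gcat (1.85 ± 0.452) and Gldc (0.838 ± 0.0517) were lowest. With ALX-5407 no neighbours overlapped. Phgdh led at 147 ± 4.90 CPM per kilobase (SD, n = 3) and Psat1 followed at 104 ± 1.10. Shmt2 came next at 89.0 ± 2.97, above Mthfd2 (65.6 ± 4.47) and Mthfd1l (55.4 ± 2.45). Psph (21.5 ± 0.59) stood above Mthfd1 (19.2 ± 0.891), the reverse of their order with vehicle.

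Ratios of enzymes within a library do not depend on scaling between libraries. Of 6 ratios computed, 4 were without overlap between the groups. Among single genes tested, 28.4% were without overlap and higher with ALX-5407, and 27.1% without overlap and lower. The same share over other pairs of genes was not computed. An exact permutation test of 3 against 3 libraries cannot go below p = 0.1, and these 4 ratios reached it (0.15 with Benjamini-Hochberg adjustment over the 6 pairs of this exact test). The log2 ratio of Mthfd1l to Mthfd1 was 1.94, 2.05 and 1.98 with vehicle and 1.63, 1.53 and 1.43 with ALX-5407, and it fell by 0.46 on average. The log2 ratio of Gcat to Shmt2 decreased by 0.54, from -4.70 ± 0.35 to -5.24 ± 0.042 (SD, n = 3 each). Vehicle library 3 stood apart at -4.30, against -4.92 and -4.88, and without it the difference was -0.34. The log2 ratio of Psat1 to Phgdh went from -0.25 ± 0.15 to -0.498 ± 0.043 and that of Psph to Psat1 from -2.44 ± 0.046 to -2.27 ± 0.055 (SD, n = 3 each). The ratio of Mthfd2 to Mthfd1 overlapped between the groups (difference -0.12, two-sided exact permutation test, p = 0.3). Without vehicle library 1 this difference was -0.18, and without vehicle library 2 it was -0.063.

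**Figure D3:**
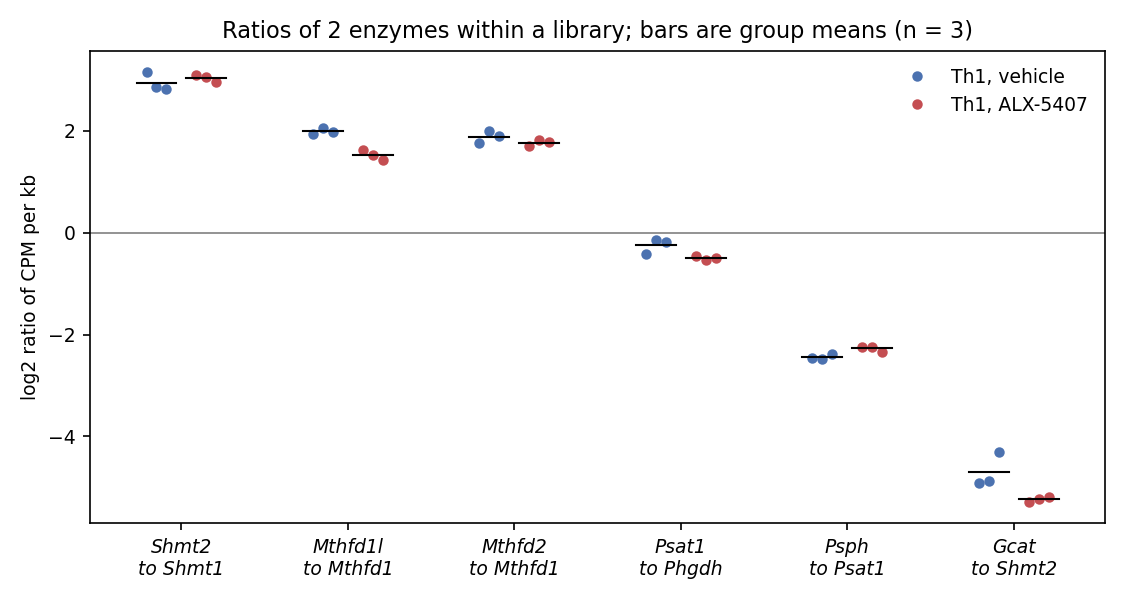
Log2 ratio of 2 enzymes within each library, from CPM per kilobase, with 1 point per library and bars at the group means (n = 3). The ratio of Mthfd1l to Mthfd1 was lower in each treated library than in any untreated one, while Shmt2 to Shmt1 overlapped.

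The profile of Phgdh, the member with the smallest p-value, was compared with those of all other genes as the Euclidean distance of centred log2 CPM over the 6 libraries. Among members, Shmt2 lay nearest (distance 0.20), followed by Psph (0.28), Shmt1 (0.34) and Psat1 (0.38), and Gldc lay farthest (3.24). The 5 nearest genes of the rest were Nup93 (0.105), Syne3 (0.107), Rnf227 (0.111), Il12rb1 (0.114) and Ncapd2 (0.114), with log2 fold changes from 0.87 to 0.94. Nup93 encodes a nuclear pore protein, Il12rb1 a chain of the IL-12 receptor and Ncapd2 a condensin subunit. Over 6 libraries in 2 groups, this distance mostly measures the size of the difference between the groups.

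Other genes of the pathway were taken from 7 lists with 66 genes in all, and 48 had enough counts to be tested. With ALX-5407, 22 of the 48 rose, 5 fell and 21 did not pass at an adjusted p-value of 0.05, where 24.5% of all genes tested were higher and 23.2% lower. Without treated library 1, the count that fell was 3. Their median log2 fold change was 0.23.

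**Figure D4:**
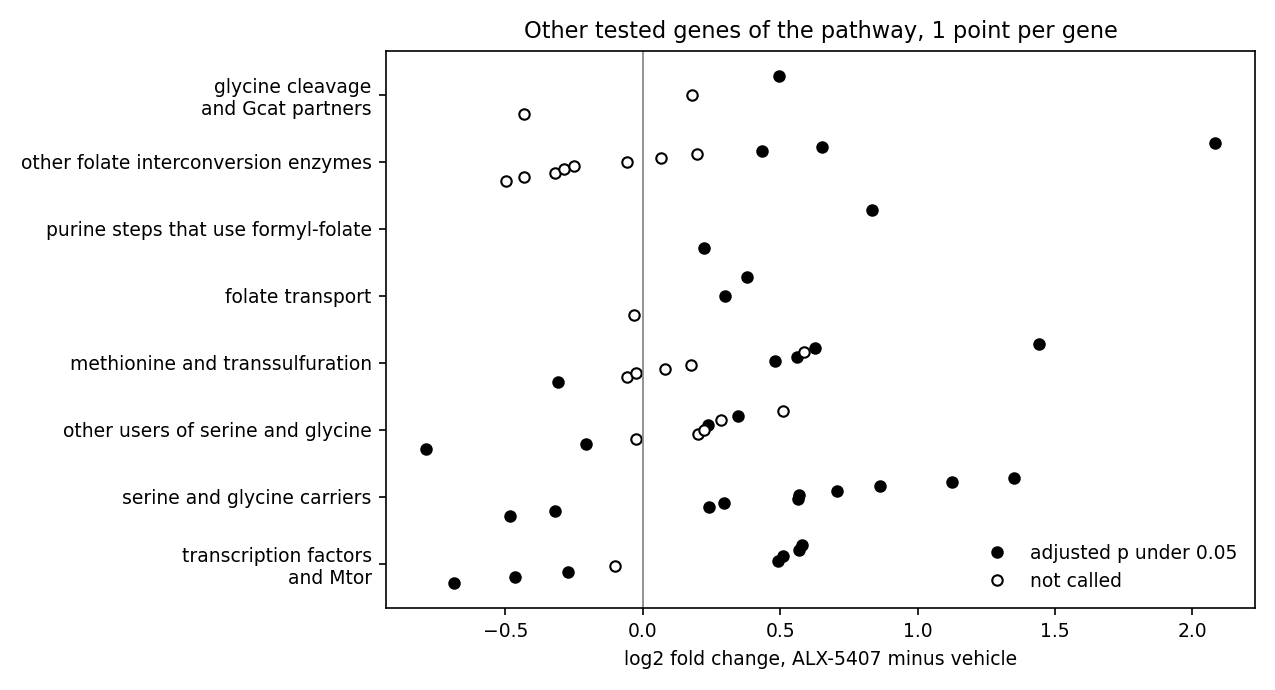
Log2 fold change, ALX-5407 minus vehicle, of each tested gene in the 7 lists and of 8 factors, with 1 point per gene. Filled points had an adjusted p-value under 0.05. Aldh1l2 lies farthest to the right at 2.08. All 10 carriers passed the test, 8 higher and 2 lower, beside 24.5% higher and 23.2% lower of all genes tested.

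Among partners of Gldc in glycine cleavage, Gcsh, the carrier protein, was at 13.5, 15.3 and 16.2 CPM with vehicle and at 21.01, 20.1 and 22.3 CPM with ALX-5407, a rise of 0.49 on the log2 scale (edgeR, adjusted p = 0.000983). For Amt, the aminomethyltransferase, the log2 change was -0.43 (edgeR, adjusted p = 0.119). For Dld, a dehydrogenase shared with other complexes, it was 0.18 (edgeR, adjusted p = 0.136). Without vehicle library 3 both passed, at -0.68 for Amt and 0.29 for Dld. Without vehicle library 1 neither passed, at -0.29 for Amt and 0.068 for Dld. Tdh, which makes the substrate of Gcat, had at most 4 counts in any library and was not tested.

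Of 11 other folate enzymes tested, 3 were higher and 0 lower, while 8 did not pass. The share that was higher was near the 24.5% of all genes, and the median log2 fold change of the 11 was -0.056. Aldh1l2, a mitochondrial dehydrogenase that oxidises formyl-folate, was at 15.5, 20.5 and 12.7 CPM with vehicle and at 63.2, 72.8 and 70.5 CPM with ALX-5407. Each treated library was more than 3 times as high as any untreated one. The rise was 2.08 ± 0.13 (SE) on the log2 scale (edgeR, adjusted p = 4.48e-09), beyond that of every member. Tyms, thymidylate synthase, rose by 0.43. Both purine enzymes that use formyl-folate were higher, Gart by 0.83 (edgeR, adjusted p = 1.44e-07) and Atic by 0.22 (edgeR, adjusted p = 0.0139). With upper-quartile scaling Atic did not pass (0.17; edgeR, adjusted p = 0.0502). Of 3 folate carriers tested, Slc19a1 at the plasma membrane (0.30) and Slc25a32 in mitochondria (0.38) were higher. Slc25a32 did not pass when vehicle library 1 or 2 or treated library 1 was left out (0.30 to 0.33).

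In methionine metabolism and transsulfuration, 4 of 10 genes tested were higher and 1 lower, beside 24.5% and 23.2% of all genes. Cth, which makes cysteine from cystathionine, was at 25.9, 25.7 and 29.7 CPM with vehicle and at 74.6, 71.999 and 74.4 CPM with ALX-5407, a rise of 1.44 on the log2 scale (edgeR, adjusted p = 1.72e-09). Mat2a, which makes S-adenosylmethionine, rose by 0.63 and Mtr, methionine synthase, by 0.56, while Mat2b, a regulatory subunit for Mat2a, fell by 0.31. Among 9 tested genes that use serine or glycine in other ways, 2 were higher (Sptlc1 and Alas1) and 2 lower (Gatm and Ptdss1). Both shares were near those of all genes. Gatm, which uses glycine for creatine synthesis, went from 127 to 73.7 CPM (log2 change -0.79; edgeR, adjusted p = 6.53e-07). Sptlc1, a subunit of the enzyme that joins serine to a fatty acyl chain, rose by 0.35. The calls of Alas1, which opens heme synthesis from glycine (0.24), and Ptdss1, which makes phosphatidylserine (-0.21), were lost in 6 and 8 of 13 alternatives. For Alas1 these included leaving out vehicle library 1 or 2 or treated library 1 or 3 (0.19 to 0.25). For Ptdss1 they included leaving out vehicle library 1 or 2 or any treated library (-0.22 to -0.17).

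All 10 tested carriers of serine and glycine passed the test, 8 higher and 2 lower. Of all genes tested, 24.5% were higher and 23.2% lower, so the share of carriers that was lower was near that of all genes. Slc6a9, the target of ALX-5407, was at 6.97, 6.83 and 4.74 CPM with vehicle and at 15.01, 15.3 and 17.1 CPM with ALX-5407 (log2 change 1.35; edgeR, adjusted p = 1.49e-06). Slc1a4 and Slc1a5, exchangers of neutral amino acids, rose by 1.13 and 0.87, and Slc38a1 by 0.71. The carriers that were lower were Slc25a38, which brings glycine into mitochondria for heme synthesis (-0.48), and Sfxn3 (-0.32). Sfxn3 did not pass when vehicle library 1 or treated library 1 or 3 was left out (-0.31 to -0.23).

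Of 8 factors known to act on these genes, 4 were higher and 3 lower in mRNA, beside 24.5% and 23.2% of all genes. Atf4, the transcription factor that drives serine synthesis genes under amino acid shortage, was lower, at 421, 446 and 378 CPM with vehicle and at 262, 263 and 248.7 CPM with ALX-5407 (log2 change -0.69; edgeR, adjusted p = 1.81e-06). Myc, which is known to act on Shmt2 and other members, rose by 0.57 (edgeR, adjusted p = 1.62e-05), Mtor by 0.51 and Cebpg, a partner of ATF4, by 0.49. Ddit3, a target and partner of ATF4, fell by 0.47. Atf3, a factor induced under stress, was lower at -0.27, but not when vehicle library 1 or 2 or treated library 3 was left out (-0.29 to -0.16). Protein levels and metabolites were not analysed here.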

How the data were processed

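Raw read counts were deposited by the authors for 54532 genes in 6 libraries, without normalization or pooling, with gene names, lengths and GRCm38 coordinates. The submitters' processing notes name fastp, HISAT2 2.0.5, featureCounts 1.5.0-p3 and mm10. The strand setting and the handling of reads with several matches are not given in the sources used here. The labels describe poly-T bead capture and the methods depletion of ribosomal RNA. Coordinates of 9 of 10 members were the same in GENCODE M21, and those of Gldc are given as in the table. The count table gives Gldc a length of 3754 bases, against 6091 exon bases in GENCODE M21, so its counts may miss part of its exons.

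Counts were fitted in edgeR 4.0.16 (R 4.3.3) with filterByExpr (minimum count 10, minimum total 15), TMM factors from 0.965 to 1.03 and the quasi-likelihood F test, two-sided, with Benjamini-Hochberg adjustment over 15938 genes. Standard errors came from the fold change and its F statistic. The same fit was also run on simulated data, with a common dispersion taken from the main fit and far fewer changed genes than were called here. CPM values use TMM-scaled library sizes, and ratios had a pseudocount of 0.1 CPM per kilobase and two-sided exact permutation tests in scipy 1.17.1. Copies were found with BLAST 2.17.0 (95% identity over at least 100 bases). Promoter sequences are from RefSeq, GRCm38.p6.

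The members and lists were chosen with earlier results of these data known. Named genes are all members, up to 3 genes with the smallest p-values per list and direction, the partners of Gldc and Gcat, Slc6a9, Atf4 and Myc, and the 5 genes nearest to Phgdh in profile. CCAAT and GGGCGG were added after TGATGNAA and CACGTG had been searched. Alternatives were other normalizations, DESeq2 1.42.0, no filter, protein-coding genes alone, a replicate block, added pseudogene reads and each library left out. A gene of the lists is not reported here by name.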

Additional observations from a re-analysis of the deposited data

How the results depend on the processing

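Across 14 alternatives, 9 of 10 members kept their direction and their side of the threshold, with Phgdh from 0.87 to 0.99, Shmt2 from 0.79 to 0.90 and Mthfd2 from 0.20 to 0.31 on the log2 scale. The exception was Gcat without vehicle library 3. The 6 ratios kept their direction with raw counts plus 0.5 (-0.53 to 0.17). Scaling moved the median log2 fold change of all genes by at most 0.059. Correlations of deviations between same-numbered libraries ran from -0.0084 to 0.063. With 3 libraries per group, these cannot decide whether the replicate numbers pair the libraries. With a replicate block, 7 members were higher and 1 lower, and Dld passed (0.19). Of all genes, 4071 were then higher and 3833 lower, against 3910 and 3695 without the block. The count of list genes that were lower ranged from 3 (without treated library 1) to 6 with 1 library left out, against 5. Low counts limit Gcat and Gldc.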
